A study of Mus musculus with 4 samples.

Results

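Caspases are cysteine proteases that cut other proteins after aspartate. The genes described here are 6 mouse caspases, Casp1, Casp2, Casp4, Casp6, Casp8 and Casp9, with Apaf1, which encodes the platform that activates caspase-9, and Cflar, which encodes c-FLIP, a caspase-like inhibitor and partner of caspase-8. They were taken by symbol from the gene count tables, and all 8 were found once among the 50600 genes listed. The samples were T cells taken as primary cells from the inbred mouse strain C57BL/6NJ, and their RNA was sequenced. They form 1 group of 4 biological replicates, and the labels state no treatment, time or genotype beyond the strain, so the values describe levels and the spread between libraries, not a response. A linked protocol concerns the differentiation of CD4 T cells, and the header of each table carries a name with Th0, activated and 48 h, none of which stands in the labels. Sex was recorded as not collected and age as unknown, and the 4 libraries carry the same donor identifier, so the spread between them may be partly technical.

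The libraries held 45110199 to 127755788 counted read pairs, and the 8 genes together took 0.0589% to 0.0624% of them. All 10 T cell marker genes had counts, with a summed level of 4120 to 4219 CPM (counts scaled to the library total), of which Cd4 alone gave 930.6 ± 9.79 CPM (SD, n = 4). Summed markers of other cells lay far below this. B cell markers summed to 1.74 to 3.28 CPM (6 of 6 with a count), NK cell markers to 1.79 to 2.66 CPM (4 of 5), dendritic cell markers to 4.88 to 7.33 CPM (4 of 6) and CD8 T cell markers to 8.86 to 10.7 CPM (2 of 2), the last almost all Cd8b1 at 9.62 ± 0.749 CPM with Cd8a at 0.279 ± 0.143 CPM. The NK cell sum was mostly Eomes at 2.34 ± 0.392 CPM, and the dendritic cell sum mostly Zbtb46 at 5.76 ± 0.845 CPM. Erythroid and platelet markers summed to 0.443 to 1.69 CPM (3 of 5 with a count) and stromal markers to 30.4 to 33.3 CPM (4 of 6), mostly Pecam1 at 26.9 ± 1.51 CPM, which is above Casp9, Casp1 and Casp6 in CPM. The part of these cells in the levels of the 8 genes was not tested. In bulk RNA, fewer cells of a type and less RNA per cell cannot be told apart.

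Apoptotic caspases act in a relay. An initiator is brought together on a platform, cuts itself, and then cuts the effector caspases that dismantle the cell. Caspase-8 is the initiator downstream of death receptors such as Fas and is held in check by c-FLIP, while caspase-9 is activated on the apoptosome that Apaf1 builds with cytochrome c released from mitochondria. Caspase-2 is activated on the PIDDosome, and caspase-6 is counted among the effectors. Caspase-1 and the mouse Casp4 product, often called caspase-11, are inflammatory caspases that cut gasdermin D and so open pores in the cell membrane. In T cells, caspase-8 and c-FLIP are known for a second role, since a caspase-8 and c-FLIP heterodimer keeps activated T cells from dying by necroptosis.

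All 8 genes were expressed in every library. Each lay above 1 CPM, with Benjamini-Hochberg adjusted p-values from limma (one-sided, n = 4) between 4.33e-18 for Casp2 and 1.9e-12 for Casp6. Among the 23365 genes with a count, 47.4% passed this threshold, and among the 15076 protein-coding genes 69.3% did, so a call above 1 CPM was common. Against 10 CPM all 8 passed as well, beside 36.4% of the genes with a count and 55.6% of the protein-coding ones; Casp6 came closest to the threshold, at a log2 excess of 0.21 and an adjusted p of 0.0126 in limma. The median level of the 8 genes was 38.7 TPM (an abundance scale that corrects for gene length). For protein-coding genes with a count it was 14.2 TPM, and for 57 other genes of the same pathways 31.9 TPM. These 57 include 2 caspases, Casp12 at 0.0078 TPM and Casp14 with no count, so the comparison depends on how the caspases were grouped.

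**Figure D1:**
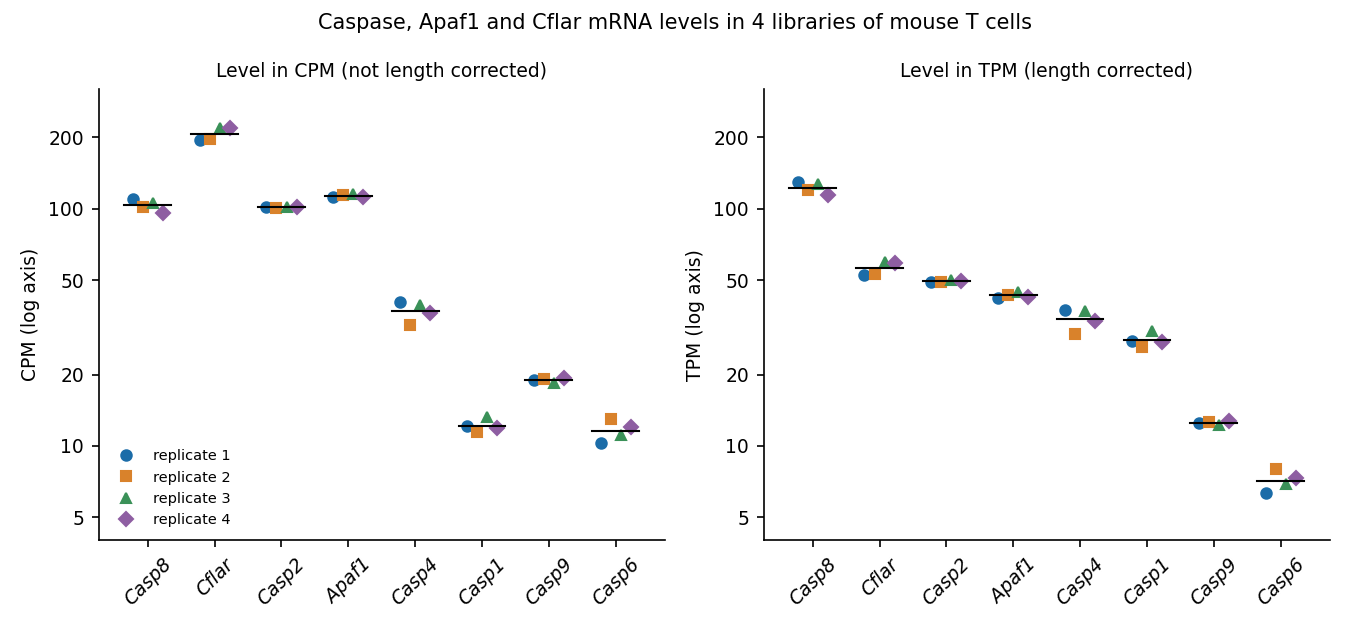
Level of each caspase gene, Apaf1 and Cflar in each of the 4 libraries, in CPM on the left and in TPM by summed exon length on the right, both on log axes; symbols are libraries and bars are means. Casp8 was the highest in TPM and Cflar in CPM, and the points of a gene lie close together beside the distances between most genes.

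Casp8 encodes the initiator caspase of the death receptor pathway, and it had the highest TPM of the 8 genes by summed exon length. It lies on chromosome 1 at chr1:58795374-58847503 (mm10, plus strand) with 11 exon blocks. Its read pairs numbered 6274, 4588, 13474 and 5138 in replicates 1 to 4. Per length this gave 129.9, 120.3, 126.7 and 114.0 TPM, a mean of 122.7 ± 7.05 TPM (SD, n = 4), above the level of 88.6% of protein-coding genes with a count. Replicate 1 was the highest and replicate 4 the lowest, and in every library Casp8 lay above each of the other 7 genes in TPM.

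Cflar lies just upstream of Casp8 on the same strand, at chr1:58711508-58758884. The gap between the genes is 36489 bases and holds only Gm3841, a processed pseudogene with 0 counts in the 4 libraries. Cflar had 11146, 8847, 27892 and 11681 read pairs in replicates 1 to 4, which is 52.7, 53.0, 59.9 and 59.2 TPM (mean 56.2 ± 3.88 TPM, SD, n = 4). Replicates 1 and 2 were the lower and replicates 3 and 4 the higher, a grouping read from these same values. Within a library, the log2 ratio of Cflar to Casp8 in TPM was -1.30, -1.18, -1.08 and -0.94 (mean -1.13 ± 0.15), so Cflar stood at 0.458 times Casp8 on this scale, and below it in 4 of 4 libraries.

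That order rested on the length by which counts were divided. Cflar has the longest summed exon length of the 8 genes, 12669 bases, while its longest protein-coding transcript has 6572 and its median protein-coding transcript 2586.5 bases. For Casp8 the same lengths were 2893, 2585 and 1883 bases. In CPM, with no length correction, Cflar was the higher, at 207.3 ± 13.04 CPM against 103.4 ± 5.92 CPM for Casp8 (SD, n = 4), a mean log2 ratio of 1.00. With the longest transcript as length the ratio was -0.34 and with the median transcript 0.54, both lengths chosen after seeing the data. The counts show abundant RNA from both genes, and which of them had more molecules cannot be read from gene-level counts.

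Partners of caspase-8 at the death receptor were all expressed. Fadd, the adaptor that recruits caspase-8, stood at 17.4 ± 1.45 TPM (SD, n = 4), and Ripk1, a kinase of the same complex, at 21.1 ± 1.48 TPM. Casp8 exceeded Fadd 7.04-fold (log2 2.82 ± 0.20) and Ripk1 5.79-fold (log2 2.53 ± 0.13) in TPM, in 4 of 4 libraries each. Over the 4 scales these log2 ratios ranged from 2.38 to 3.43 and from 1.45 to 2.77. Of the Ripk1 exons, 34.3% overlap the pseudogene Gm17084 on the same strand, where reads may go uncounted, so Ripk1 may be understated. Cflar exceeded Fadd 3.22-fold (log2 1.69 ± 0.09), and by more on the other scales, with log2 ratios of 2.63 by longest transcript, 3.39 in CPM and 3.97 by median transcript. All 10 genes of the death receptor list lay above 1 CPM by the limma test, beside 69.3% of protein-coding genes with a count. Tnfrsf10b, the mouse TRAIL receptor, was the highest of them in TPM by summed exon length, at 93.2 ± 3.05 TPM. It was followed by Fasl, the ligand of Fas, at 56.0 ± 6.35 TPM. Bid, which caspase-8 cuts to pass the signal to mitochondria, stood at 44.4 ± 0.762 TPM, and Traf2, a ubiquitin ligase adaptor of the TNF receptor, at 42.5 ± 1.195 TPM. The lowest by summed exon length was Tnfsf10, which encodes TRAIL, at 11.7 ± 1.43 TPM. By median transcript Bid was the highest of the list, at 52.4 TPM against 42.1 TPM for Tnfrsf10b. Fadd was then the lowest, at 7.86 TPM against 9.33 TPM for Tnfsf10. The 4 genes of the necroptosis list, the death route that caspase-8 restrains, also passed: Ripk3 at 38.0 ± 1.69 TPM, Cyld at 27.4 ± 0.426 TPM, Mlkl, which encodes the membrane-breaking pseudokinase, at 12.7 ± 0.501 TPM and Zbp1, a nucleic acid sensor, at 5.63 ± 0.248 TPM.

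Casp9 encodes the initiator of the mitochondrial pathway and was among the 3 lowest of the 8 genes on all 4 scales. It lies at chr4:141793612-141815976 (mm10, plus strand, 10 exon blocks) and had 1081, 868, 2351 and 1031 read pairs. Its level was 12.5, 12.7, 12.3 and 12.7 TPM in replicates 1 to 4, a mean of 12.5 ± 0.197 TPM (SD, n = 4), above that of 48.1% of protein-coding genes with a count. The libraries lay close together, with a coefficient of variation of 2.18% in CPM where counting error alone gives 2.95%. Its exons share 94 bases, 1.81% of its exon length, with Cela2a and Ctrc on the opposite strand, and both of these had 0 counts.

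Its platform was more abundant. Apaf1, at chr10:90989311-91082770 on the minus strand with 28 exon blocks, had 6364, 5153, 14765 and 5984 read pairs, or 42.2, 43.3, 44.5 and 42.5 TPM (mean 43.1 ± 1.00 TPM, SD, n = 4). The log2 ratio of Apaf1 to Casp9 was 1.75, 1.76, 1.85 and 1.73 in the 4 libraries (mean 1.77 ± 0.05), a 3.42-fold difference in TPM. Apaf1 stayed above Casp9 on each of the 4 scales, from a log2 ratio of 0.79 by median transcript length to 2.57 in CPM. Casp8 exceeded Casp9 9.70-fold (log2 3.28 ± 0.10), in 4 of 4 libraries and on each scale, with log2 ratios of 2.11 to 3.28.

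Genes around the apoptosome were expressed throughout. Cycs, which encodes somatic cytochrome c, stood at 63.5 ± 4.31 TPM (SD, n = 4) and above Apaf1 (log2 ratio of Apaf1 to Cycs -0.55 ± 0.13), but the sign turned to 0.85 in CPM and 0.13 by median transcript length. Cycs also shares near-identical sequence with another annotated gene, Gm10053, and Hspd1 with Hspd1-ps3, so the levels of both are less certain. All 6 genes of this list lay above 1 CPM, beside 69.3% of protein-coding genes with a count. By summed exon length they ran from Diablo, an antagonist of the inhibitors of apoptosis, at 26.8 ± 2.16 TPM to Hspd1, a mitochondrial chaperone, at 1499 ± 22.8 TPM. Htra2, a mitochondrial protease, stood at 106.0 ± 4.70 TPM, Aifm1, which encodes apoptosis-inducing factor, at 77.9 ± 3.52 TPM and Endog, a nuclease, at 51.3 ± 1.69 TPM. On the other scales Endog was the lowest, at 15.9 CPM against 54.0 CPM for Diablo. By median transcript Endog stood at 23.2 TPM and Diablo at 112.1 TPM. Xiap, the inhibitor that binds caspase-9 directly, had 39.2 ± 1.53 TPM, so Casp9 stood at 0.321 times Xiap (log2 -1.64 ± 0.08). This ratio ran from -2.47 in CPM to -0.37 by median transcript length.

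The inhibitor list of 10 genes includes Xaf1 and the Naip genes. Being on it does not show that a gene inhibits apoptosis. Of the 10, 7 lay above 1 CPM, 2 below it and Naip1 had no count, beside 69.3% of protein-coding genes above 1 CPM. Of the 7, Naip2 no longer passed when TPM was tested against 1 (log2 0.34, adjusted p 0.165 in limma). In TPM by summed exon length Birc5, which encodes survivin, a protein of the dividing cell, was the highest at 119.8 ± 5.55 TPM (SD, n = 4). Birc3 and Birc2, ubiquitin ligases that act on Ripk1, followed at 84.4 ± 1.23 and 46.0 ± 2.09 TPM, and Birc6 stood at 39.6 ± 1.67 TPM. On other scales this order changed. In CPM Birc6 was the highest, at 333.1 against 118.8 for Birc5. Birc3 lay above Birc5 by longest transcript (105.8 against 89.0 TPM) and by median transcript (110.4 against 86.1 TPM). The 2 below 1 CPM were Naip5 and Naip6, at 0.0215 ± 0.0249 and 0.193 ± 0.0620 CPM. These 2 genes share 4398 bases at 96.9% identity, so some reads may not be assigned between them. How far this lowered their counts was not tested.

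Casp2 encodes the initiator of the PIDDosome and was the steadiest of the 8 genes between libraries. It lies at chr6:42264985-42282508 (mm10, plus strand, 9 exon blocks) and had 5787, 4563, 13047 and 5456 read pairs. In replicates 1 to 4 it stood at 49.1, 49.0, 50.3 and 49.6 TPM, a mean of 49.5 ± 0.572 TPM (SD, n = 4), and its CPM of 101.8 ± 0.485 varied by 0.476%, less than the 1.28% that counting error alone gives. Casp2 exceeded Casp9 3.93-fold in TPM (log2 1.97 ± 0.03, and 1.18 to 2.56 over the 4 scales). Its adaptor Cradd, also called RAIDD, was low at 4.46 ± 0.692 TPM, and Casp2 exceeded it 10.96-fold (log2 3.45 ± 0.22, and 2.90 to 4.03 over the scales). Pidd1, the PIDDosome scaffold, stood at 61.2 ± 3.64 TPM, and the log2 ratio of Casp2 to Pidd1 was -0.19, -0.34, -0.35 and -0.33, with replicate 1 apart from the other 3. The sign of this small ratio turned on the other scales, to 0.34 in CPM, 0.26 by longest and 0.16 by median transcript length.

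Casp6 encodes an effector caspase, known for cutting lamin A, and was the lowest of the 8 genes in TPM by summed exon length. It lies at chr3:129901425-129914103 (mm10, plus strand, 8 exon blocks) and had 588, 587, 1420 and 640 read pairs. Its level was 6.31, 7.97, 6.92 and 7.36 TPM in replicates 1 to 4 (mean 7.14 ± 0.703 TPM, SD, n = 4), above that of 41.9% of protein-coding genes with a count. Replicate 2 was the highest and replicate 1 the lowest, a 1.26-fold range in CPM, and the coefficient of variation of 9.93% was above the 3.77% of counting error.

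Casp6 lay below both apoptotic initiators it was paired with. It stood at 0.571 times Casp9 (log2 -0.81 ± 0.13) and at 0.0588 times Casp8 (log2 -4.09 ± 0.21) in TPM, each in 4 of 4 libraries. The log2 ratio to Casp8 kept its sign on all 4 scales, from -4.09 to -2.32, while that to Casp9 turned to 0.70 by longest transcript length. The summed exon length of Casp6 is 5584 bases and its longest protein-coding transcript 1456 bases, so its TPM depends on the length chosen.

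Most genes of caspase substrates were expressed. Of 10 genes of the substrate list, 9 lay above 1 CPM by the limma test, beside 69.3% of protein-coding genes with a count. In TPM by summed exon length the highest was Lmnb1, which encodes lamin B1, at 421.6 ± 18.8 TPM (SD, n = 4). Parp1, a DNA repair enzyme, followed at 192.5 ± 3.03 TPM, Acin1, a chromatin condensation factor, at 162.3 ± 4.86 TPM and Rock1, the kinase behind membrane blebbing, at 89.7 ± 3.56 TPM. Lmnb1 also led by longest transcript. In CPM Acin1 was the highest, at 408.8 against 363.8 for Lmnb1. By median transcript Parp1 was, at 968.2 TPM against 198.7 TPM for Lmnb1. Lmna, which encodes the lamin A that caspase-6 cuts, passed the test but was low, at 1.12 ± 0.189 TPM and 1.91 ± 0.317 CPM. When TPM was tested against 1 it no longer passed (log2 0.14, adjusted p 0.489 in limma). Gsdme, a gasdermin that caspases can cut, lay below 1 CPM at 0.406 ± 0.137 CPM. Dffa, the inhibitor of the caspase-activated DNase, stood at 50.7 ± 2.46 TPM.

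**Figure D2:**
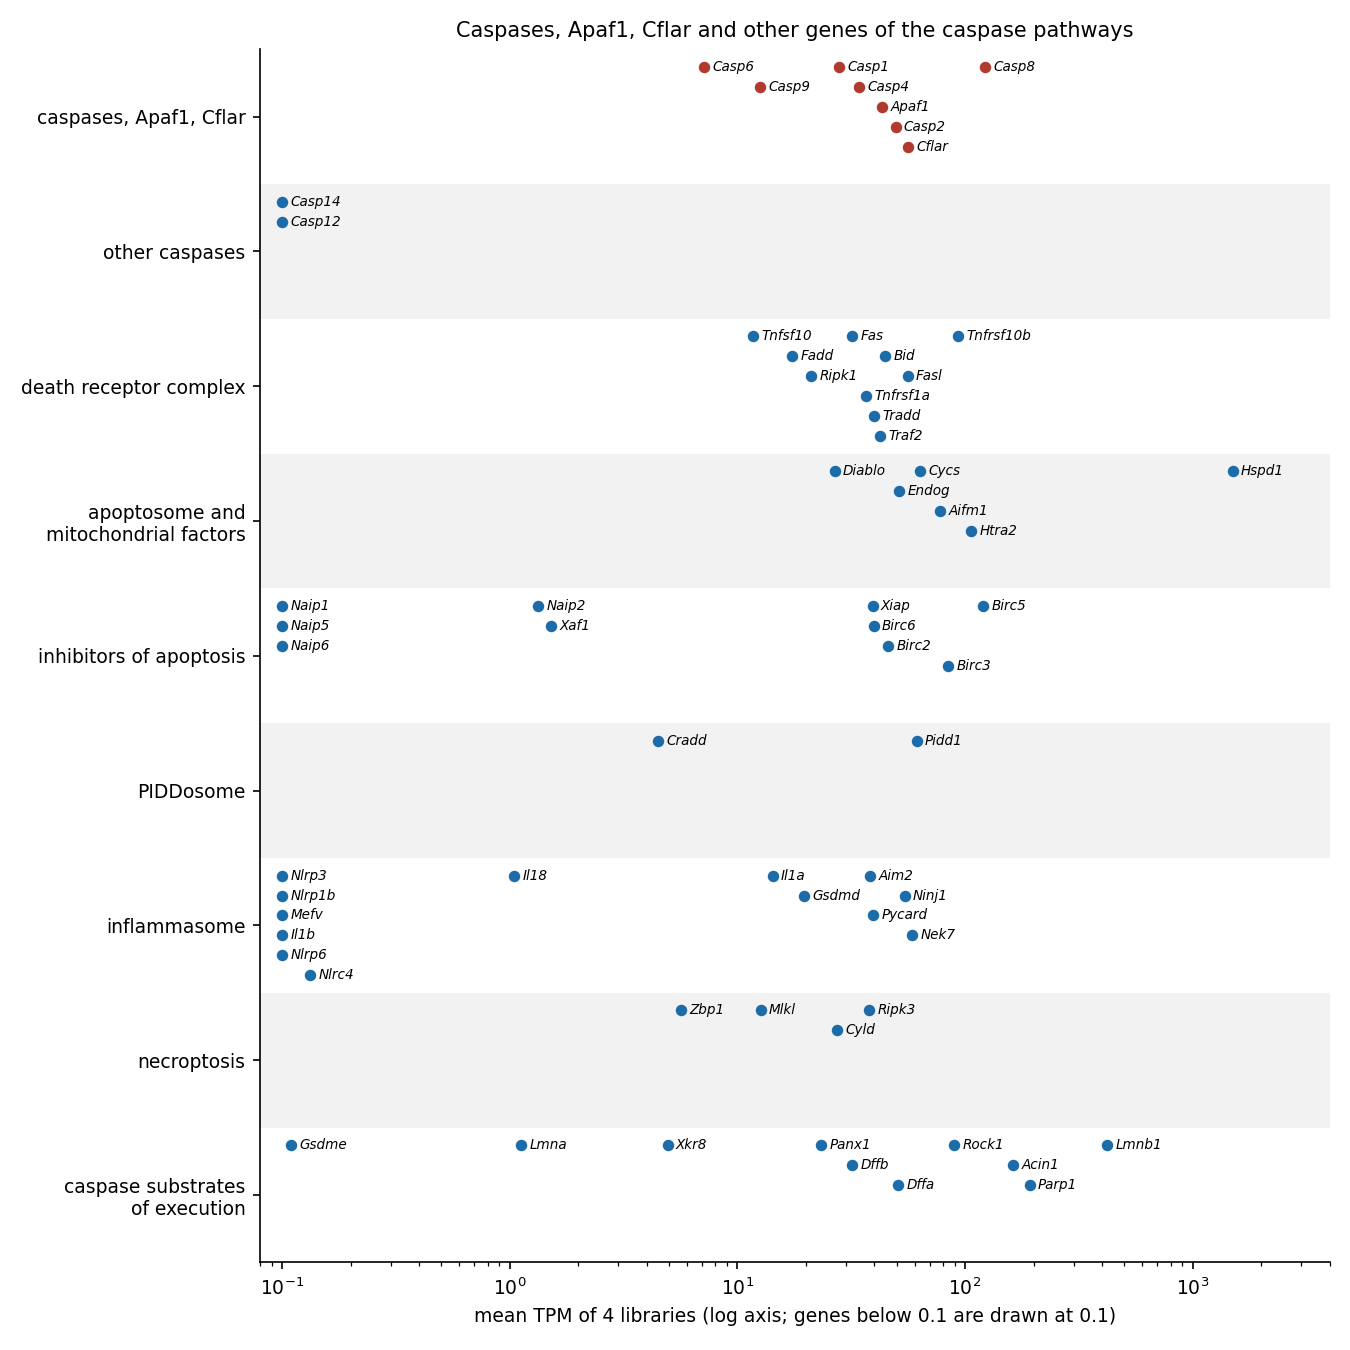
Mean TPM of the 6 caspases, Apaf1 and Cflar (red) and of 57 other genes of the caspase pathways (blue) by list, on a log axis; genes below 0.1 TPM are drawn at 0.1. All death receptor genes lie between Casp6 and Casp8, from Tnfsf10 at 11.7 to Tnfrsf10b at 93.2 TPM, while Casp12, Casp14, Nlrp3, Nlrp1b, Mefv, Il1b, Nlrp6 and 3 Naip genes lie at the left edge.

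The inflammatory caspases were both expressed and lie side by side on chromosome 9. Casp1, which cuts the precursors of interleukin-1 beta and interleukin-18, lies at chr9:5298517-5307265 (mm10, plus strand, 10 exon blocks) and had 689, 518, 1685 and 638 read pairs. Its level was 27.6, 26.2, 30.6 and 27.4 TPM in replicates 1 to 4 (mean 27.9 ± 1.87 TPM, SD, n = 4). Replicate 3, the deepest library, was the highest. Its exons sum to 1497 bases, the shortest of the 8 genes, and in CPM, which does not correct for length, it stood at 12.2 ± 0.721.

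Casp4, the sensor of cytosolic lipopolysaccharide, begins 1562 bases after Casp1 ends, at chr9:5308828-5336783 on the same strand with 9 exon blocks. It had 2309, 1455, 5035 and 1936 read pairs, or 37.3, 29.7, 36.9 and 33.5 TPM (mean 34.4 ± 3.51 TPM, SD, n = 4). Replicate 2 was the lowest library, and Casp4 had the largest coefficient of variation of the 8 genes in CPM, 10.03% against 2.14% from counting error. Casp1 lay below Casp4 in 4 of 4 libraries, with log2 ratios in TPM of -0.43, -0.18, -0.27 and -0.29 (mean -0.29 ± 0.11), although the ranges of the 2 genes over the libraries overlapped. On the other scales the gap was wider, at -1.60 in CPM, -1.66 by longest and -2.33 by median transcript length.

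Beyond Casp4 by 8646 bases on the same strand lies Casp12, another gene of this cluster, and it was almost silent. Casp12 had 2 read pairs in replicate 1 and 0 in the other 3, at or under the 3 counts taken as the limit for a count of 0, which is 0.0235 to 0.0665 CPM over the libraries. Casp14, a caspase of the epidermis, had no count. Inflammatory caspases are best known in myeloid cells. Of 11 myeloid markers, Lyz2, Fcgr1, S100a8 and S100a9 had no count in 4 libraries, and Csf1r had 1 read pair in all. The 11 markers summed to 4.61 to 6.20 CPM (7 of 11 with a count). Most of this was Cd68 and Adgre1, at 2.69 ± 0.315 and 2.60 ± 0.332 CPM (SD, n = 4). The part of myeloid cells in the levels of Casp1 and Casp4 was not tested.

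The inflammasome list was divided. Of its 13 genes, 6 lay above 1 CPM by the limma test, beside 69.3% of protein-coding genes with a count. Another 4 lay below 1 CPM and 3 had no count. Of the 4, Il18 no longer passed when TPM was tested against 1 (log2 -0.04, adjusted p 0.966 in limma). The adaptor Pycard, also called ASC, stood at 39.4 ± 1.65 TPM (SD, n = 4) and the DNA sensor Aim2 at 38.3 ± 0.775 TPM. Nek7, a kinase that serves the NLRP3 inflammasome, was the highest at 58.8 ± 2.29 TPM, and Ninj1, which ruptures the membrane of dying cells, had 54.4 ± 4.12 TPM. Nlrp3 itself, Nlrp1b and Mefv had no count in any library, which allows up to 0.0235 to 0.0665 CPM over the libraries, and Nlrc4, Nlrp6, Il1b and Il18 lay below 1 CPM, with a level of 0.0797 ± 0.0640 CPM for Nlrp6 and 1 read pair in all for Il1b. RNA of Gsdmd, the pore-forming substrate of both inflammatory caspases, stood at 19.6 ± 1.85 TPM. Casp1 stood at 0.709 times Pycard (log2 -0.50 ± 0.15, and -1.83 in CPM), and Casp4 at 1.74 times Gsdmd (log2 0.80 ± 0.27), where replicate 2 gave 0.41 and the other 3 gave 0.83 to 1.02. On the other scales Casp4 over Gsdmd was larger, at a log2 of 1.86 in CPM and by median transcript and 2.18 by longest transcript.

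Promoter sequences of the cluster are shown because Casp1 and Casp4, both expressed, stand next to the almost silent Casp12 on the same strand, and that of Apaf1 as the window richest in CpG dinucleotides among the 8 genes. Each is the RefSeq window (GRCm38.p6) from 250 bases before to 50 after the start of the gene, 5′ to 3′ on the gene's strand, with CpG in capitals. The windows are chr9:5298267-5298566 for Casp1, chr9:5308599-5308898 for Casp4 and chr9:5345226-5345525 for Casp12, all on the plus strand, and chr10:91082694-91082993 on the minus strand for Apaf1. RefSeq gives a further, overlapping Casp4 window, not printed here.
Casp1: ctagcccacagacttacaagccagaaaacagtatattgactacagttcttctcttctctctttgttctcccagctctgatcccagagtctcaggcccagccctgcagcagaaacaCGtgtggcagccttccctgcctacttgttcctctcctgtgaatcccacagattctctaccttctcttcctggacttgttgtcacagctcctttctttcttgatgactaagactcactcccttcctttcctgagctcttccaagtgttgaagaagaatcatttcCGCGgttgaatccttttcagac
Casp4: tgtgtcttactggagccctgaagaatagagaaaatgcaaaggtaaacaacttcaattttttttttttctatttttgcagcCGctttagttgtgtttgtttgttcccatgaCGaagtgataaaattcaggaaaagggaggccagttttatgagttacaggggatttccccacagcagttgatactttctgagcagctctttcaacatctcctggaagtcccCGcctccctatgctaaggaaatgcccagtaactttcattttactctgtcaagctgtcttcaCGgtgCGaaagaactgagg
Casp12: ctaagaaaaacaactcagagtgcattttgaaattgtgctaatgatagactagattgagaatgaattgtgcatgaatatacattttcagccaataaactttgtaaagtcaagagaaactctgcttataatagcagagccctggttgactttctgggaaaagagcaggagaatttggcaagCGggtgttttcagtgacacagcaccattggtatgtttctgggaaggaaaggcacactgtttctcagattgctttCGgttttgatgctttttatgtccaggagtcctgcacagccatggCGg
Apaf1: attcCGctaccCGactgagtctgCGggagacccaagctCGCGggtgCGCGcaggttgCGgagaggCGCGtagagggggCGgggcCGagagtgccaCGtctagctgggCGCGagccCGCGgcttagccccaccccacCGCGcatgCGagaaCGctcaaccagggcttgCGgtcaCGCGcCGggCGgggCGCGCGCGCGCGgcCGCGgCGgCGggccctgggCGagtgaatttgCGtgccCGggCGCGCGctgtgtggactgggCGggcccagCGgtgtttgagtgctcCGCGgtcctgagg
The Apaf1 window holds 46 CpG and is 74.7% G or C, and 98.4% of the 32851 RefSeq windows of this length hold fewer CpG. Casp9, Casp2, Casp6 and Cflar followed with 28, 26, 16 and 12 CpG, above the median of 7 over all windows. The Casp8 and Casp4 windows hold 5 and the Casp1 window 3, with 38.0% and 23.3% of windows holding fewer, and the Casp12 window also holds 3. The Casp8 window, chr1:58802252-58802551, lies inside the gene, downstream of the start at chr1:58795374 used for its counts, so it does not describe that start. The motif TTCNNNGAA, the letters of a STAT site, was searched for on both strands; it occurs 2 times in the Casp12 window and in none of the windows of the 8 genes, and 8.30% of all windows hold it. The GC box GGGCGG, on either strand, occurs 4 times in the Casp9 window, 3 times in those of Casp6 and Apaf1, 2 times in that of Casp2 and in none of the other 4, against 35.7% of all windows with at least 1 match. A match or its absence in these letters describes the window alone.

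In TPM by summed exon length the order of the means was Casp8, Cflar, Casp2, Apaf1, Casp4, Casp1, Casp9 and Casp6. Only Casp4 and Casp1, neighbours in that order, had ranges over the 4 libraries that overlapped, and every neighbouring pair had the same order in 4 of 4 libraries. On this scale the step from Cflar to Casp2 was 1.13-fold (log2 0.18 ± 0.08) and that from Casp2 to Apaf1 1.15-fold (log2 0.20 ± 0.02). On other scales Cflar over Casp2 reached a log2 of 1.02 in CPM and 1.47 by median transcript, and Casp2 over Apaf1 turned to -0.16 in CPM and was 0.74 by longest transcript. Casp1 to Casp9 was a larger step here, 2.22-fold (log2 1.15 ± 0.11), but turned to -0.64 in CPM and by median transcript.

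Other lengths changed the order. By longest transcript Casp4 moved to 64.7 ± 6.56 TPM, above Apaf1 at 43.1 ± 1.11 TPM, and Casp6 to 19.9 ± 2.00 TPM, level with Casp1 at 20.3 ± 1.39 TPM and above Casp9 at 12.2 ± 0.193 TPM (SD, n = 4). By median transcript Cflar led at 124.4 ± 8.48 TPM, followed by Casp8 at 85.3 ± 4.83 and Casp4 at 64.2 ± 6.49 TPM. In CPM, Casp8 and Casp2 overlapped at 103.4 ± 5.92 and 101.8 ± 0.485, as did Casp1 and Casp6 at 12.2 ± 0.721 and 11.6 ± 1.15. By their means, Casp8, Cflar, Casp2, Apaf1 and Casp4 lay above Casp1, Casp9 and Casp6 on all 4 scales.

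**Figure D3:**
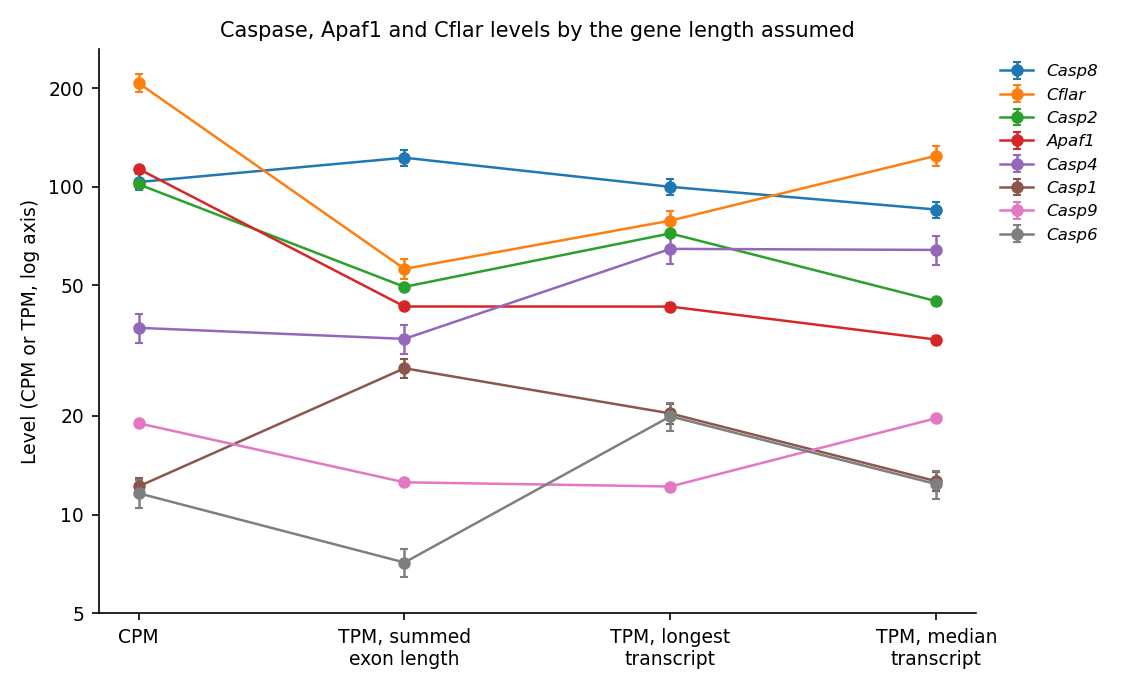
Mean level of each of the 8 genes, with SD over 4 libraries, in CPM and in TPM computed with 3 gene lengths (summed exons, longest and median protein-coding transcript), on a log axis. Lines join the values of a gene, and those of Cflar, Casp4 and Casp6 cross others between scales.

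Over the 16 gene pairs compared, the first gene was higher in 4 of 4 libraries for 8 pairs and the second for the other 8. An exact sign-flip permutation test (two-sided, n = 4) then gives p = 0.13 for each, the smallest that 4 libraries allow, so no ratio could pass 0.05. The sign held on all 4 scales for 12 pairs and turned on at least 1 scale for 4, which were Cflar with Casp8, Casp6 with Casp9, Apaf1 with Cycs and Casp2 with Pidd1.

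**Figure D4:**
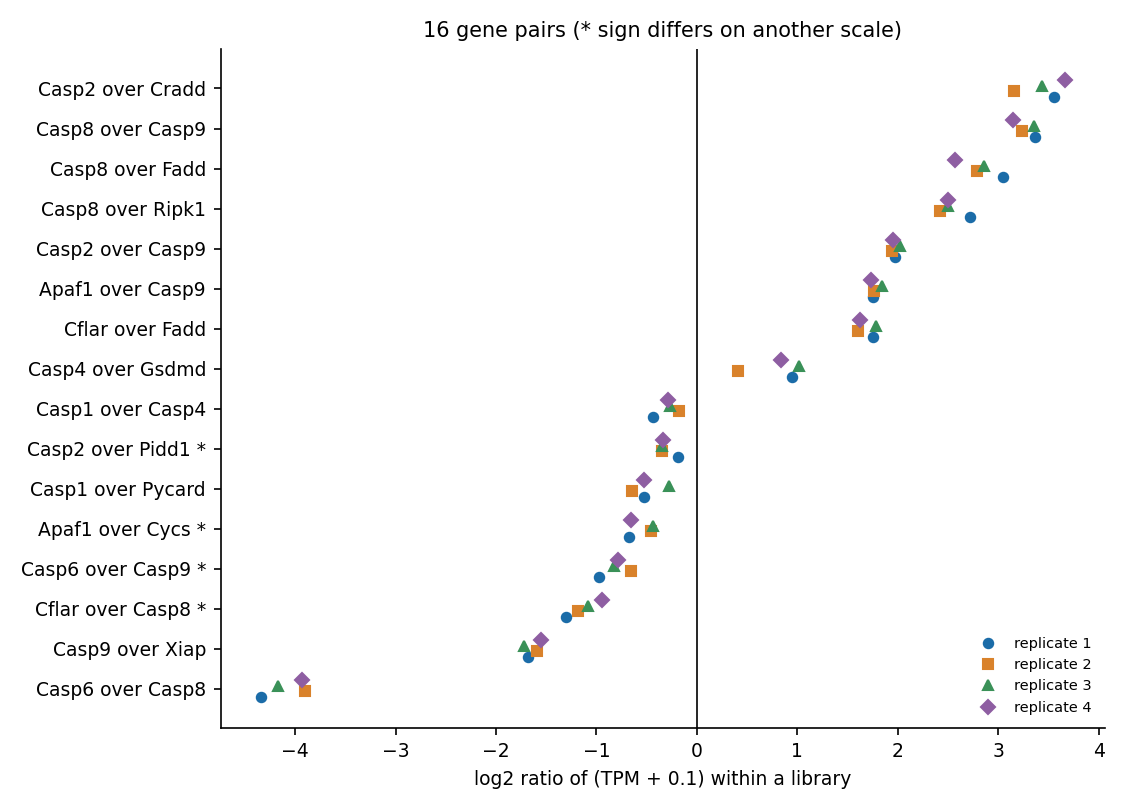
Log2 ratio of 2 genes within each library for 16 pairs, from TPM with 0.1 added; symbols are libraries, the vertical line is equality, and a star marks the 4 pairs whose sign differs in CPM or with another gene length. No pair has libraries on both sides of the line.

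Differences between libraries were tested gene by gene. In edgeR's quasi-likelihood test of each library against the other 3, none of the 8 was called for any library at a Benjamini-Hochberg adjusted p under 0.05, where 0.0678% of 13279 genes were called for replicate 1, 0.00753% for replicate 3 and 0% for replicates 2 and 4. DESeq2 called none of the 8 either, where it called 2.1%, 0.0214%, 0.0133% and 0.00856% of the genes it tested for replicates 1 to 4. DESeq2 gave adjusted p-values to only 3434 genes for replicate 1 and 7510 for replicate 3. A gene without one counted as not called, and DESeq2 withholds it from the genes of lowest mean count. In CPM, Casp4, Casp9, Casp1 and Casp6 lay above only 62.1%, 50.6%, 45.3% and 44.8% of protein-coding genes with a count. These genes lay too low to be tested for replicate 1, and Casp1 and Casp6 too low for replicate 3. With 1 library in an arm, whose spread is assumed from the other 3, a lack of calls does not show that the libraries were alike. Of the 32 contrasts, whose log2 differences ranged from -0.27 to 0.22, 2 had an unadjusted p under 0.05. These were Casp4 in replicate 2, lower by a log2 of -0.27 (SE 0.09, adjusted p 0.535 in edgeR), and Casp8 in replicate 1, higher by 0.12 (SE 0.06, adjusted p 0.479 in edgeR). For the 45 other pathway genes that passed the filter, 0 of 180 contrasts were called and 4 had an unadjusted p under 0.05.

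The spread of each gene was also set against that of genes of like abundance. In edgeR's goodness-of-fit test none of the 8 genes was called as varying more than the trend, beside 0.422% of 13279 genes that did, and only Casp4 had an unadjusted p under 0.05 (adjusted p 0.779). The biological coefficient of variation given here is edgeR's estimate, which is drawn toward the trend, so closeness to the trend is partly built in. It was 6.65% for Casp4 where the trend gave 5.62%, and 3.98% for Casp2 where it gave 4.46%. Cflar had 5.94% beside a trend of 5.79%, and Casp6, the gene with fewest counts, 8.89% beside 8.88%.

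**Figure D5:**
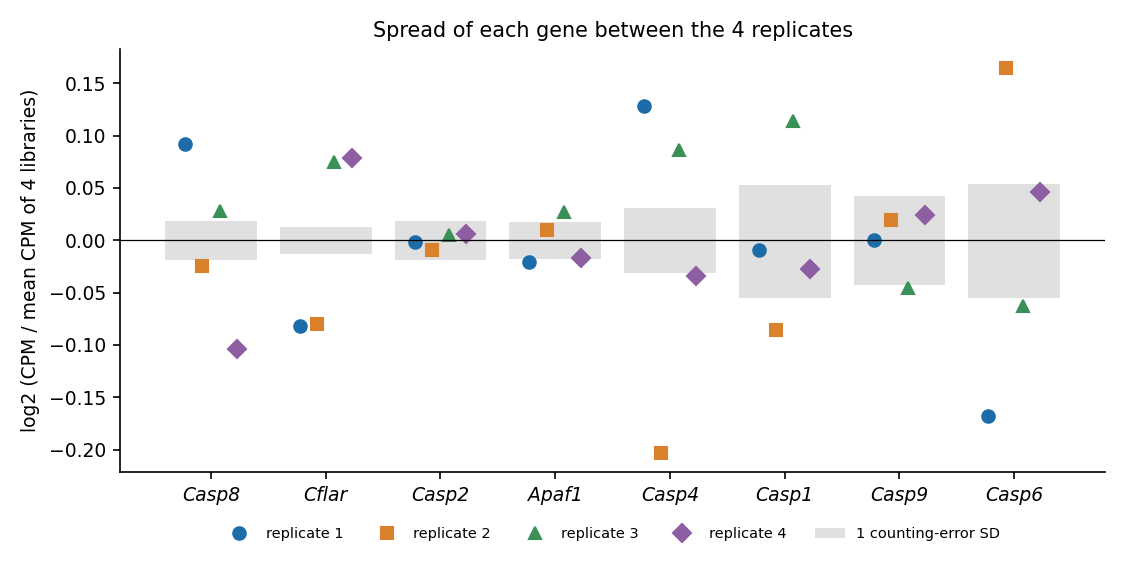
Log2 of each library's CPM over the mean of the 4 libraries for each of the 8 genes; grey bands are 1 SD of counting error. Casp2 and Casp9 lie mostly within the bands, Cflar is lower in replicates 1 and 2 than in 3 and 4, and Casp4 is lowest in replicate 2.

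Among the 57 other pathway genes, the gene nearest to each of the 8 in level was found by the mean absolute log2 difference in TPM over the 4 libraries. Apaf1 lay nearest to Bid (0.04), Casp2 to Dffa (0.05), Casp8 to Birc5 (0.05), Casp9 to Mlkl (0.05) and Casp1 to Cyld (0.06). Cflar lay nearest to Nek7 (0.09), Casp4 to Fas (0.10), which stood at 31.9 ± 1.82 TPM (SD, n = 4), and Casp6 to Zbp1 (0.33). With replicates of 1 group these are likenesses of level, not of pattern. They hold for TPM by summed exon length and were not computed on the other scales. In CPM, Casp1 stood at 12.2 beside 100.5 for Cyld, while Casp8 stood at 103.4 beside 118.8 for Birc5.

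Sequence shared with other loci touched 2 of the 8 genes. Cflar shares 598 bases at 100% identity with the processed pseudogene Gm9845, which had 65 counts in all. It also shares stretches of 105 to 207 bases at 95% identity or more with 89 other genes. The search kept a limited number of matching transcripts, on the same strand only, so 89 may be too low. Casp8 shares 130 bases at 99.2% identity with the pseudogene Gm20257, which had 199 counts in all. Reads from such stretches may be lost or assigned elsewhere, so the levels of Cflar and Casp8 carry this uncertainty, while Casp1, Casp4 and Casp12, despite lying side by side, share no such stretch.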

How the data were processed

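The tables of 4 RNA-seq libraries, all in the same group, were used. Per the file headers, the authors deposited raw counts: read pairs were assigned to genes by featureCounts 1.4.6-p4 with the exons of GENCODE M13, both ends mapped and strand option 2. The header command has no option to count multi-mapping reads or reads over several genes. The assembly is mm10 per the labels, and aligner version and trimming are not stated there. The labels say total RNA-seq, but a protocol linked from them is titled for polyA RNA. The replicate number in the header matched the label for 4 of 4 libraries.

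Symbols and transcripts came from GENCODE M21 (50376 of 50600 genes, 99.6%, matched) and promoter windows from RefSeq. CPM is a library's counts scaled to its total, and TPM was computed from counts and summed exon lengths. Levels were tested with limma 3.58.1 on log2(CPM + 0.1) (no covariate, one-sided, empirical Bayes with a trend) over genes with a count. Replicates were compared with edgeR 4.0.16 on 13279 genes that passed filterByExpr (TMM factors 0.9956 to 1.005; a lone library is assumed to vary like the other 3). P-values were adjusted by Benjamini-Hochberg over all genes tested, threshold 0.05. Pair ratios used log2(TPM + 0.1), and an exact sign-flip test. A count of 0 allows up to 3 counts, and intervals of this kind cover counting error only. Library pairs differed by more than sampling noise (chi-square per degree of freedom 7.78 to 24.2). Shared sequence was searched with blastn 2.17.0 (at least 95% identity over 100 bases). The tests were tried on simulated counts. Alternatives were DESeq2 1.42.0, other filters, scalings, pseudocounts and gene lengths, and leaving out each library. Scripts ran in python 3.11.15 (numpy 2.4.6, pandas 2.3.3, matplotlib 3.10.9) and R 4.3.3.

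The 8 genes, the gene lists, the markers and the pairs were chosen with earlier results of these data known. All 8 genes may be named. Of each pathway list, values are given for at most the 4 highest in TPM and the 2 lowest with a count, for genes of the pairs and for the gene nearest in level. The single marker genes given by value, Naip2, Il18 and the genes set apart by 1 library were named after their values were seen. Some genes of these pathways are not reported here.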

Additional observations from a re-analysis of the deposited data

Results flagged for a closer look

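Of 80 values over 4 libraries tested for a library apart from the rest (Dixon's ratio of gap to range), 7 had such a library. Chance flags about 1 in 20 groups, but the 7 cannot be set against that share, since Casp12 and Il1b had counts in 1 library only, which fixes the ratio, and the ratio of Casp2 to Pidd1 repeats Pidd1. None was the level of Casp1, Casp2, Casp4, Casp6, Casp8, Casp9, Apaf1 or Cflar itself. Replicate 1 stood apart for Pidd1, lowest at 74.2 CPM against up to 83.5 CPM, and with it for the log2 ratio of Casp2 to Pidd1, highest at -0.19. Replicate 1 was also the lowest for Lmnb1, at 342.4 CPM against up to 372.1 CPM, and the highest for Il1a, at 10.3 CPM against 7.34 CPM at the lowest. Replicate 4 was the lowest for Cyld, at 98.7 CPM against up to 101.1 CPM. The values for Casp12 (0.0351 CPM in replicate 1) and Il1b (0.0187 CPM in replicate 4) rest on 2 and 1 read pairs.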

How the results depend on the processing

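The count of 8 genes above 1 CPM was the same under all 12 alternatives run for the level. None of the 8 was called between replicates or as more variable than the trend under any alternative. DESeq2 left many genes without an adjusted p-value for replicates 1 and 3, and these counted as not called. Casp4, Casp9, Casp1 and Casp6 were among them for replicate 1. Pair ratios kept their sign when any 1 library was left out and with other pseudocounts, where a pseudocount of 1 moved Apaf1 over Casp9 to 1.70, Casp2 over Casp9 to 1.90 and Casp2 over Cradd to 3.22 (log2). The length scale moved most ratios by more than their SD, the transcript lengths having been chosen after seeing the data. Without length correction (CPM) the sign turned for Cflar over Casp8 (1.00), Apaf1 over Cycs (0.85), Casp2 over Pidd1 (0.34), Casp2 over Apaf1 (-0.16) and Casp1 over Casp9 (-0.64). In CPM the log2 ratio moved for Apaf1 over Casp9 (2.57), Casp8 over Casp9 (2.44), Casp2 over Casp9 (2.42), Casp1 over Casp4 (-1.60), Casp6 over Casp8 (-3.15), Casp8 over Fadd (2.38), Cflar over Fadd (3.39), Casp8 over Ripk1 (1.45), Casp9 over Xiap (-2.47), Casp2 over Cradd (4.03), Casp1 over Pycard (-1.83) and Casp4 over Gsdmd (1.86). By longest transcript the sign turned for Casp6 over Casp9 (0.70), Casp2 over Pidd1 (0.26) and Apaf1 over Casp4 (-0.58), and the ratio moved for Cflar over Casp8 (-0.34), Apaf1 over Cycs (-0.22), Casp8 over Casp9 (3.03), Casp2 over Casp9 (2.56), Casp1 over Casp4 (-1.66), Casp6 over Casp8 (-2.32), Cflar over Fadd (2.63), Casp8 over Ripk1 (2.77), Casp2 over Cradd (2.95) and Casp4 over Gsdmd (2.18). By median transcript it turned for Cflar over Casp8 (0.54), Apaf1 over Cycs (0.13), Casp2 over Pidd1 (0.16), Apaf1 over Casp4 (-0.90) and Casp1 over Casp9 (-0.64), and the ratio moved for Apaf1 over Casp9 (0.79), Casp8 over Casp9 (2.11), Casp2 over Casp9 (1.18), Casp1 over Casp4 (-2.33), Casp6 over Casp8 (-2.78), Casp6 over Casp9 (-0.67), Casp8 over Fadd (3.43), Cflar over Fadd (3.97), Casp8 over Ripk1 (2.24), Casp9 over Xiap (-0.37), Casp2 over Cradd (2.90), Casp1 over Pycard (-1.31) and Casp4 over Gsdmd (1.86). These shifts follow from the lengths alone. When TPM was tested against 1, Naip2, Il18 and Lmna no longer passed, at log2 0.34, -0.04 and 0.14. No paired analysis was possible because the labels give 1 group only. Depth limits the genes with few read pairs, such as Casp12, and not the 8 genes, each with at least 518 in a library.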
